A study of Mus musculus with 8 samples.

Results

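Hippocampi of sham-operated mice were described on their own, as a picture of what the fetal mouse hippocampus expresses at embryonic day 15.5. The 4 sham libraries, titled S1-4, S1-6, S3-1 and S3-4, were taken by their treatment label from 8 libraries in all, and the remaining 4, from growth-restricted fetuses, were not used here. The fetuses were C57Bl/6J. Their dams carried a micro-osmotic pump that released vehicle containing ethanol, implanted 3 days before dissection, so the sham group had maternal anesthesia, surgery and the vehicle and is not an untouched control. Tissue of both sexes was dissected, the sex of each library is not labelled, and the sources used here do not state whether a library holds 1 fetus or pooled fetuses or which litter it came from. Total RNA was depleted of cytoplasmic and mitochondrial ribosomal RNA, made into stranded libraries and sequenced as single reads. Column totals were 11212632 counts in S1-4, 12612363 in S1-6, 13631166 in S3-1 and 15405748 in S3-4. Values are CPM, the counts of a gene per 1000000 counts of its column, and wherever 4 values are listed they stand in the order S1-4, S1-6, S3-1 and S3-4.

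At this stage the hippocampus is a strip of medial pallium beside the cortical hem, a signaling center at the dorsal midline that secretes Wnt and bone morphogenetic proteins. Radial glia, the neural stem cells of the ventricular zone, divide there and give rise to intermediate progenitors, which produce glutamatergic neurons of the CA fields and, later, granule neurons of the dentate gyrus. Inhibitory interneurons arrive by migration from the ganglionic eminences of the subpallium, Cajal-Retzius cells arise in part from the hem and secrete reelin at the surface, and the choroid plexus epithelium grows from the adjoining midline. RNA of dissected tissue mixes all of these cells, so that fewer cells of a type and less RNA per cell cannot be told apart in any value below.

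The 4 libraries differed in ways that are set out before the results, because several results move with them. Xist, the noncoding RNA that coats the inactive X chromosome of females (chromosome X, 103460366 to 103483254, GRCm38), was at 4.19, 1249, 1.98 and 3.83 CPM. The Y-linked genes ran the other way, with Ddx3y at 162, 0.476, 209.9 and 169 CPM and Eif2s3y without a count in S1-6, where the floor of 3 counts is 0.238 CPM. S1-6 thus had high Xist and next to no Y-linked RNA, and the other 3 libraries had the reverse. RNA of ribosomal genes also differed. The mitochondrial 12S ribosomal RNA gene mt-Rnr1 was at 482, 12912, 176 and 25254 CPM, high in S1-6 and S3-4. Yam1 on chromosome 17 (39846958 to 39848788), which shares 1245 bases with the RefSeq 18S ribosomal pseudogene Rn18s-rs5, was at 463, 2078, 658 and 893 CPM, and its neighbour Gm26917 (39843013 to 39846341) at 6251, 22569, 9123 and 7619.6 CPM, both highest in S1-6.

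Another difference was a block of predicted genes that share sequence. Among genes with unusual spread, 10 protein-coding gene models, 9 of them between positions 3000922 and 3038316 of chromosome 9 and 1, Gm21738, on chromosome 14, summed to 6076 CPM in S1-4, 33.2 in S1-6, 1845 in S3-1 and 45.2 in S3-4. Between 11.7% and 68.0% of the 50-base windows of these genes occur in no other gene of the GENCODE M21 transcripts, so many reads cannot be placed on one of them with certainty. The 30 bases shown here, read from the transcript of Gm10717 starting at base 169, were present in all 10 gene models and are shown as an example of what they share.

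Gm10717: acagtgtgcatttctcatttttcacgtttt

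These 10 genes were therefore treated as 1 signal, high in S1-4 and S3-1 and low in S1-6 and S3-4. The lincRNA Gm26870, which lies over the same stretch of chromosome 9 on the minus strand, was at 992, 13.95, 659 and 39.6 CPM.

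Base composition and transcript length also separated the libraries. Protein-coding genes were sorted into 10 bins of equal size by each property. In S3-1 the bin with the lowest GC content had a median log2 deviation of 0.21 from the 4-sample mean, the bin of shortest transcripts 0.26 and that of longest transcripts −0.21. S1-6 leaned the other way, with −0.17 for the lowest GC content, 0.12 for the highest and 0.14 for the longest transcripts. S1-6 and S3-1 were the most distant pair, with a root mean square log2 difference of 0.64 over 12306 genes, and S1-6 and S3-4 the closest, with 0.42. They remained so after the deviations by GC content and length were taken out, at 0.57 and 0.39. No library was a copy of another, since the ratio of chi-square to its degrees of freedom lay between 35.4 and 94.8 for the 6 pairs, far above the value near 1 that sampling noise gives.

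The table held 16397 genes, of which 14564 were protein-coding in GENCODE M21, and 13683 reached at least 1 CPM in each of the 4 sham hippocampi. Expression was spread over many genes rather than concentrated in few. The 100 highest genes took 15.03% ± 1.11 (SD, n = 4) of a column total, and between 1281 and 1364 genes were needed to reach 50% of it. By mean level, 47 genes were at 1000 CPM or more, 2574 between 100 and 1000, 7862 between 10 and 100 and 3941 between 1 and 10. Protein-coding genes took between 93.7% and 96.7% of counts and lincRNAs between 1.70% and 3.40%, the latter mostly by Gm26917 and Malat1.

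Among the genes listed, the noncoding Gm26917 and mt-Rnr1, given above, collected the most reads in the mean, followed by Ttr. The mitochondrial genes mt-Co2, mt-Co3, mt-Atp6, mt-Atp8, mt-Nd4l and mt-Rnr2 were not listed. Neither were the noncoding RNA genes Rn7sk, Rn7s1, Rn7s2, Rmrp and Rpph1, so the order leaves all of these out. Ttr, which encodes the thyroid hormone carrier transthyretin and is the hallmark transcript of choroid plexus epithelium, was first among protein-coding genes at 10469, 6338, 9346 and 4143 CPM, a mean of 7574 ± 2877 CPM (SD, n = 4). It was highest in S1-4 and lowest in S3-4, a range of 2.53-fold. The mitochondrial cytochrome oxidase subunit mt-Co1 followed at 4565 ± 543 CPM, although only 48.9% of its 50-base windows are unique to it. Malat1, a nuclear noncoding RNA, was at 4022 ± 561 CPM. Its levels in the 4 hippocampi stayed within a narrow band, 4327, 3541, 3562 and 4660.2 CPM.

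Among cytoskeletal genes, Tubb5, a beta-tubulin of dividing and newborn neural cells, was at 3699.7 ± 464 CPM and Actb, cytoplasmic beta-actin, at 3304 ± 301 CPM. The alpha-tubulin Tuba1a was at 2063 ± 433 CPM, of which only 27.1% of the windows are unique to the gene. Several of the abundant genes encode microtubule and growth cone proteins of young neurons. Map1b, which stabilizes microtubules in growing axons, had 2212 ± 743 CPM and was the most uneven of them, at 2099.9, 3065, 1274 and 2408 CPM, lowest in S3-1, although its highest level was under 2 times its lowest after an adjustment for GC content and length. Dpysl3, a collapsin response mediator of the growth cone, had 1734 ± 159 CPM, and the neuronal microtubule protein Map2 1369 ± 104 CPM. Neuronal beta-tubulin Tubb3 had 1376 ± 366 CPM. Dpysl3 and Map2 were even across the 4 samples, and Tubb3 was higher in S1-4 and S3-1 than in the other two.

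Translation was represented by the elongation factors Eef1a1, at 2963 ± 729.6 CPM, and Eef2, at 2229.5 ± 159.9 CPM, and by the initiation factor Eif4g2, at 1990.3 ± 288 CPM. Adhesion and Wnt signaling shared Ctnnb1, beta-catenin, at 2095 ± 301 CPM. Top2a, the topoisomerase of dividing cells, reached 1688 ± 165 CPM, and was even across the samples at 1863, 1465, 1716 and 1709 CPM. The ubiquitin ligase Nedd4 stood at 2179 ± 306 CPM, the chaperone Hsp90ab1 at 1679 ± 446 CPM and the imprinted neuronatin gene Nnat at 1515 ± 325 CPM. Sox4 was the only transcription factor among the 25 protein-coding genes with the highest CPM.

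**Figure D1:**
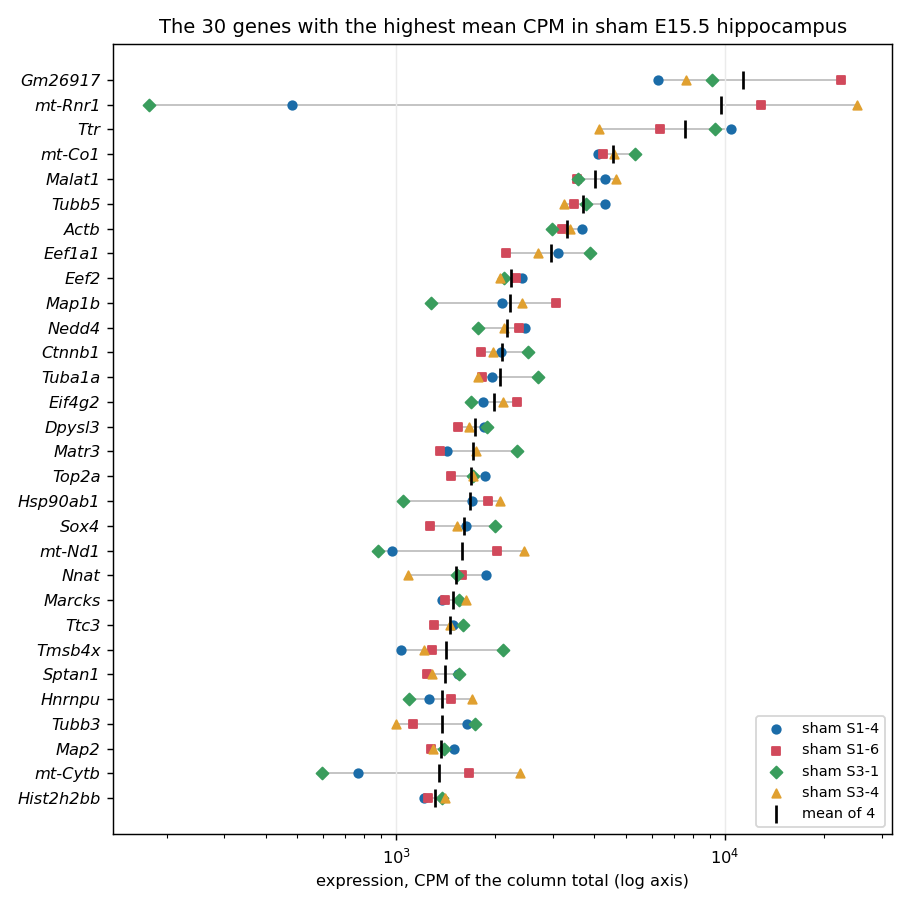
Expression (CPM, log axis) of the 30 genes of any biotype with the highest mean, 1 symbol per sham sample, with a vertical tick at the mean of the 4. mt-Rnr1 spans from 176 to 25254 CPM, whereas Malat1, Tubb5 and Actb each keep their 4 symbols close together.

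CPM counts reads per gene, so a long gene gains on a short one, and an order by CPM is one of reads collected. Levels of different genes are better compared after division by the kilobases of annotated exon. On that scale (CPM per kilobase) Ttr was again the highest protein-coding gene at 6386 ± 2425 (SD, n = 4), and only 11 of the 25 highest protein-coding genes by CPM stayed among the highest 25. Short genes took the places of the long ones. Replication-dependent histones, which package newly made DNA and whose transcripts lack a poly(A) tail, entered the list, with the linker histone Hist1h1a at 1439 ± 123 CPM per kilobase, Hist1h2bb at 1398 ± 159 and Hist1h4h at 1396 ± 171. Actb had 1233 ± 112 CPM per kilobase, Eef1a1 1189 ± 293, Tuba1a 1144 ± 239.9, Tubb5 1112 ± 139 and the actin-binding thymosin gene Tmsb4x 1030.1 ± 351. Of the windows of Hist1h2bb 59.9% were unique and of those of Hist1h4h 54.2%, and their individual levels are uncertain for that reason.

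Transcription factors were described from a list of 480 genes in 11 families, of which 446 were in the table and 306 had a mean of at least 10 CPM. Sox4, an SRY-box factor of newborn neurons (chromosome 13), was the highest per kilobase at 341, 264, 416 and 320.0 CPM per kilobase in the 4 samples. Its lowest sample exceeded the highest sample of the next factor, and it was the only one of the 25 highest factors of which this held. For the other 23 pairs of neighbours in the order the ranges over the samples overlapped. Sox2, which keeps neural stem cells undifferentiated, came next at 191, 114, 118 and 104 CPM per kilobase, highest in S1-4. Neurod6, a basic helix-loop-helix factor of pyramidal neurons of hippocampus and neocortex, had 32.5, 75.4, 221 and 178 CPM per kilobase, low in both S1 libraries and high in both S3 libraries.

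Ubiquitous and neural factors alternated further down the order. The general factor Sp3 had 110.4, 72.4, 110.0 and 84.4 CPM per kilobase. Zbtb18, a zinc finger repressor of glutamatergic neuron development, had 48.3, 62.7, 83.4 and 111 CPM per kilobase, lowest in S1-4 and highest in S3-4. The same order of samples at the ends was seen for Nfib, a nuclear factor I protein needed for hippocampal radial glia to mature, with 49.5, 75.4, 67.04 and 105 CPM per kilobase. Sox11, the partner of Sox4 in newborn neurons, was even across the samples at 72.2, 66.8, 64.2 and 62.7 CPM per kilobase. The inhibitor of differentiation Id4 had 51.8, 53.7, 75.5 and 66.7 CPM per kilobase and the thyroid hormone receptor Thra 49.5, 59.8, 58.1 and 52.1, the latter the more even.

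Regional identity genes of the dorsal telencephalon were present in each library at unequal levels. Lhx2, a LIM homeobox gene that specifies cortex against hem, had 114, 225, 204 and 361 CPM, over 3 times as high in S3-4 as in S1-4. Emx1 and Emx2, homeobox genes of the pallium, had 21.5, 34.3, 57.96 and 73.7 CPM and 23.1, 47.7, 21.8 and 84.6 CPM. Both were highest in S3-4, while Emx1 was lowest in S1-4 and Emx2 in S3-1. Zbtb20, which marks the hippocampal field, had 446, 744, 274 and 443 CPM, and Pax6, of pallial radial glia, 55.9, 79.05, 91.4 and 113 CPM. Otx2, of choroid plexus and midline, had 127, 82.3, 79.4 and 93.5 CPM.

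**Figure D2:**
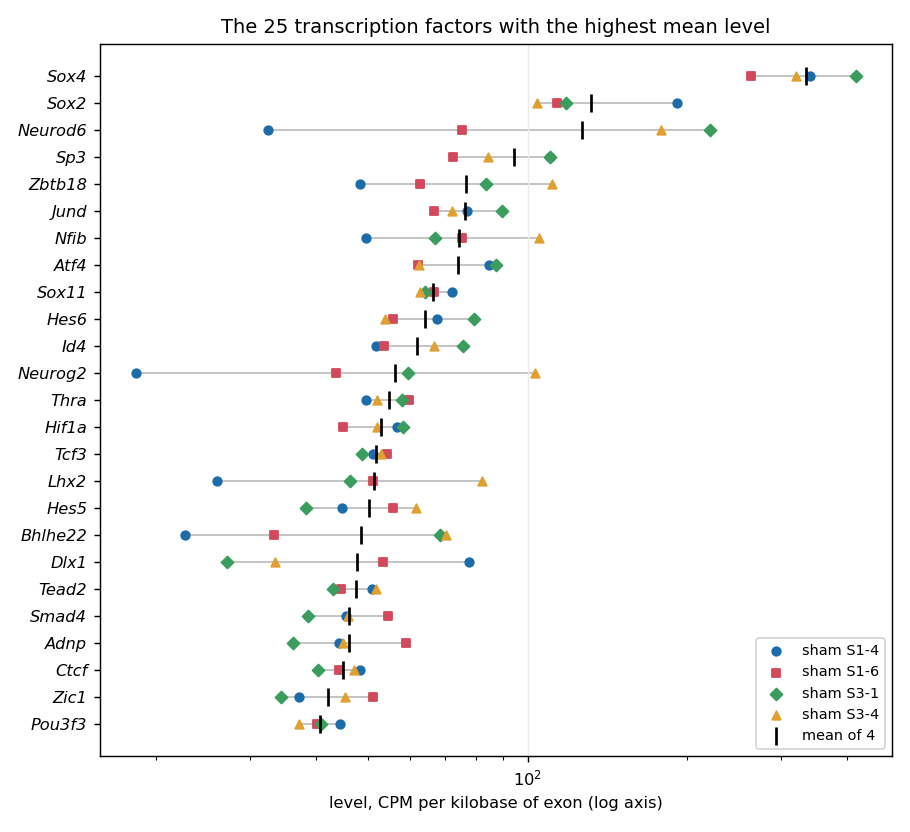
Level (CPM per kilobase of exon, log axis) of the 25 transcription factors with the highest mean, 1 symbol per sham sample, with a vertical tick at the mean. Sox4 lies apart at the right, from 264 to 416, and the symbols of Neurod6, Neurog2, Lhx2, Bhlhe22 and Dlx1 are spread most widely.

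A gene was called variable when its mean count was at least 50, its highest CPM was at least 2 times its lowest, and the exact 95% Poisson intervals of these 2 values did not overlap, so that counting error alone does not cover the difference. Of 12306 genes with that mean count, 1716 were variable, or 13.9%. Among transcription factors the count was 145 of 352, and it was 131 after the deviations by GC content and length were taken out and between 94 (without S3-1) and 116 (without S1-4) with 1 sample left out. Of the 145, 49.7% were highest in S1-6 and 53.8% lowest in S3-1, against 43.9% and 48.7% of all 1716 variable genes. The shares highest in S3-1 were 6.90% and 19.5%, those highest in S3-4 24.8% and 17.7%, and those lowest in S1-6 4.14% and 8.39%. All 4 nuclear factor I genes were variable, with Nfia at 133, 328, 134 and 342 CPM, Nfix at 79.1, 318, 136 and 278 CPM and Nfic at 10.6, 35.3, 8.44 and 26.3 CPM. Nfia, Nfix and Nfic were each high in S1-6 and S3-4 and low in S1-4 and S3-1, as was mt-Rnr1. The 3 T-box genes that passed the count minimum were variable too, among them Eomes and Tbr1 of the glutamatergic lineage. In the homeobox family the count was 35 of 58, in the basic helix-loop-helix family 18 of 45 and in the zinc finger family 32 of 71. The ETS family, with 3 of 16, and the bZIP family, with 7 of 31, were nearer to the share over all genes.

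The labelled tissue was checked against 27 lists of marker genes. All genes of the radial glia, proliferation and young neuron lists were at 1 CPM or more in every sample, and genes of hindbrain, spinal cord and hypothalamus were at or near 0. A summed CPM depends on the number and length of the genes in a list, and sums were compared between samples rather than between lists. Counts of variable genes in each list below stand against the 13.9% over all genes. The 14 radial glia genes summed to 4126, 4635, 4164 and 4676 CPM. Per kilobase Fabp7, the brain fatty acid binding protein, was the highest of them at 581 ± 125 CPM per kilobase, and the intermediate filament genes Vim and Nes had 198 ± 28.9 and 122 ± 22.3. The phosphatase Ptprz1 had 455 ± 89.8 CPM. The glutamate transporter Slc1a3 was among the most even members, at 222, 250.2, 239 and 239 CPM. In this list 4 of 14 genes (28.6%) were variable, against 13.9% over all genes, or 2 without S1-4, without S1-6 or without S3-4. Of the 4, Sox9, a factor that starts gliogenesis, had 49.9, 101, 41.2 and 75.4 CPM, highest in S1-6.

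The 14 proliferation genes included 1 variable gene, against 13.9% over all genes and 182 of the 2574 between 100 and 1000 CPM, and had a sum of 4844, 4379.5, 4228 and 4431 CPM. Mki67, an antigen of cycling cells, had 1015, 1098, 649 and 932 CPM and the cyclin Ccna2 411, 358, 403 and 407 CPM. The mitotic kinase gene Plk1 was the variable one, at 44.3, 56.9, 25.6 and 49.9 CPM, and was no longer called without S1-6 or without S3-1. The histone list, which includes H3f3a, H3f3b, H2afz and H1f0 beside replication-dependent genes, had 0 of 18 genes variable and a sum of 8977 ± 342 CPM (SD, n = 4).

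Intermediate progenitor genes differed more. The list summed to 639, 752, 796 and 1092 CPM, lowest in S1-4 and highest in S3-4, and 5 of 9 genes were variable, or 3 without S1-4. Eomes (Tbr2), the defining factor of these cells, had 65.2, 126, 148 and 299.8 CPM. Neurog2, the proneural factor upstream of it in the pallium, had 40.8, 97.1, 132 and 230.1 CPM. Both genes placed the 4 hippocampi in the same order, with S1-4 lowest and S3-4 highest, and Neurod4 had the same ends, at 9.01, 11.2, 19.7 and 29.1 CPM. Btg2, Insm1, Elavl4 and Gadd45g, which newborn neurons of other regions also express, were not variable, with Btg2 at 127, 127, 105 and 127 CPM. The other variable members, Sstr2 and Mfap4, were likewise lowest in S1-4.

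Of the young neuron genes 6 of 16 were variable and the sum was even, at 5443, 4981, 5769 and 4672 CPM. The pan-neuronal Dcx, a microtubule protein of migrating neurons, had 829, 763, 633 and 545 CPM and Stmn2, a growth cone protein, 191, 277, 244 and 238 CPM. Of the 6 variable genes, 3 encode factors of glutamatergic neurons. Neurod6 had 69.9, 162, 474 and 383 CPM, Neurod2 18.996, 53.5, 95.96 and 82.8 CPM and Tbr1, of early-born cortical and hippocampal neurons, 10.6, 55.2, 26.6 and 64.1 CPM. Each was lowest in S1-4. The other variable genes were the neurofilament gene Nefl, at 14.3, 32.7, 33.97 and 9.48 CPM, the synaptic vesicle gene Syt1, at 57.3, 71.6, 46.2 and 34.8 CPM, and the neuronal splicing factor gene Rbfox3, at 9.63, 20.3, 12.47 and 25.5 CPM. Of these Nefl and Syt1 were lowest in S3-4 and Rbfox3 in S1-4. Among genes of synapses and axons, Snap25 had 41.1 ± 7.30 CPM and Nefm 14.2 ± 2.84 CPM.

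Genes of the hippocampal fields were mostly low apart from their early members. In the dentate granule lineage list, which summed to 295, 347, 223 and 389 CPM, Prox1, the factor that fixes granule cell identity, had 57.1, 47.8, 27.1 and 45.6 CPM and Neurod1, which is needed for granule neurons to form, 39.95, 56.9, 49.7 and 97.7 CPM. The later granule cell gene Tdo2 was under 1 CPM, at 0.178, 0.159, 0.734 and 0.584 CPM, and C1ql2 was not listed. Of 8 members that passed the count minimum 6 were variable, and 3 without S1-4 or without S3-1. Prox1 and Dsp lost their calls after the adjustment for GC content and length, and Calb2 gained one. In the CA field list Zbtb20 supplied most of the sum, and Mef2c had 54.1, 48.7, 82.97 and 55.8 CPM. Pou3f1, of CA1, had 39.6, 35.6, 35.8 and 15.6 CPM. The adult CA markers Wfs1, Fibcd1, Grik4, Nr3c2 and Etv1 stood between 3.23 and 15.2 CPM in every sample.

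Genes best known from neocortical layers were also expressed. Bcl11b had 349, 389, 286 and 282 CPM and Cux1 275, 281, 148 and 210.1 CPM, both even enough not to be called. Fezf2, of deep-layer projection neurons, had 13.8, 31.95, 39.03 and 64.2 CPM and was lowest in S1-4. Several of these genes are also active in the fetal hippocampus or the subpallium, so the list does not measure adjoining neocortex alone.

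**Figure D3:**
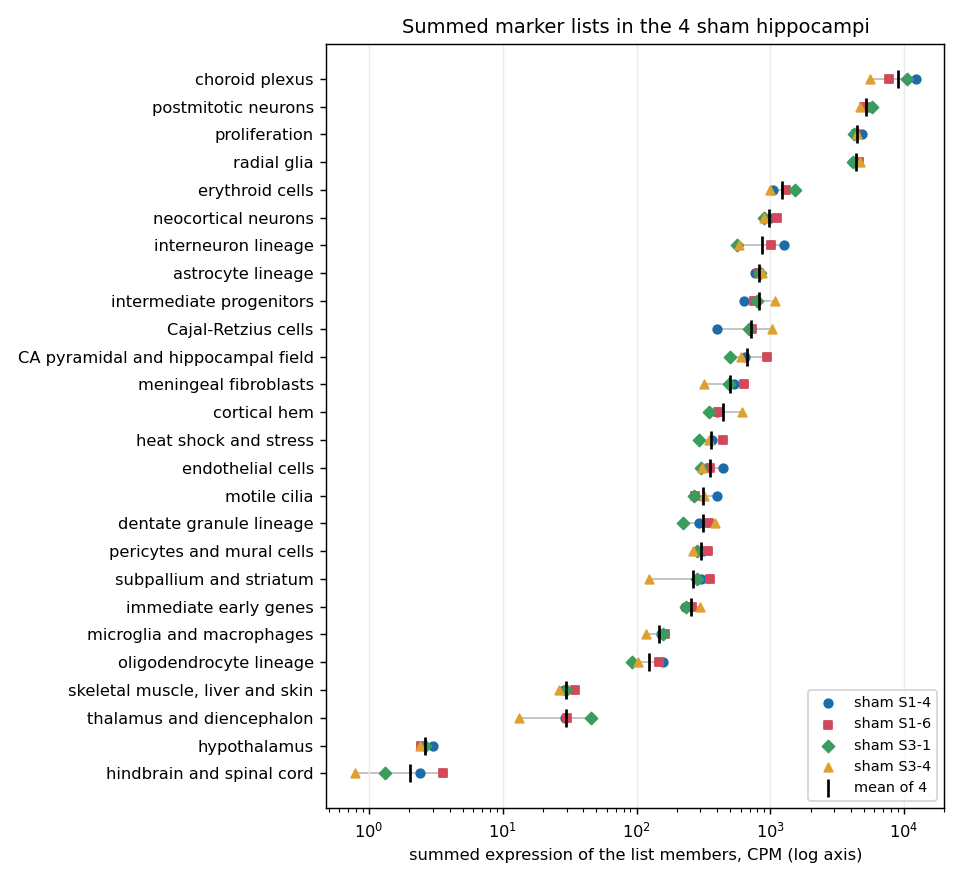
Summed expression (CPM, log axis) of 26 marker lists in the 4 sham hippocampi, 1 symbol per sample, with a vertical tick at the mean. Proliferation and radial glia vary little around 4471 and 4400 CPM, the subpallium list is lowest in S3-4, and hypothalamic and hindbrain lists stay under 4 CPM.

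The cortical hem list was highest in S3-4, at 402, 409.5, 347 and 609 CPM. Of its 14 members 9 were highest in that sample, against 15.2% of the 12306 genes. Wnt3a, the ligand on which hippocampal development depends, had 8.12, 11.8, 8.51 and 17.7 CPM. Wnt2b had 9.81, 16.7, 9.61 and 27.003 CPM, Wnt8b 25.95, 31.5, 16.5 and 49.5 CPM and Wnt5a, a noncanonical ligand, 61.003, 72.5, 47.8 and 109 CPM. For these 4 ligands S3-4 was highest and S1-6 second. R-spondins, which amplify Wnt signaling, included Rspo1 at 12.2, 18.6, 13.4 and 32.8 CPM, Rspo2 at 27.9, 37.03, 25.8 and 61.2 CPM and Rspo3 at 67.3, 59.8, 86.4 and 100.3 CPM. The hem and roof plate factor Lmx1a had 45.6, 33.5, 29.9 and 49.3 CPM and was not variable. In this list 7 of 12 genes were variable, against 13.9% over all genes, but 1 without S3-4 and 4 without S3-1, so most of its calls rested on S3-4.

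Of 10 Cajal-Retzius cell genes, 7 were highest in S3-4 and 7 lowest in S1-4, against 15.2% and 13.5% of the 12306 genes. The sum was 397, 724, 695 and 1034 CPM. Reln, which encodes reelin, had 259, 532, 510.2 and 758 CPM. Trp73, of hem-derived Cajal-Retzius cells, had 12.2, 33.5, 16.1 and 38.2 CPM. Nhlh2 had 20.3, 35.04, 51.1 and 79.1 CPM and Lhx5 3.66, 5.79, 5.72 and 8.05 CPM. Ndnf ran the other way, at 6.42, 9.59, 10.9 and 5.26 CPM, highest in S3-1 and lowest in S3-4, and Lhx1 and Ebf3 were highest in S1-6. Of 8 genes 5 were variable, and without S1-4 or S3-4 the number was 3. Reln supplied most of the sum, which had a mean of 198 CPM without it.

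Choroid plexus genes had their highest levels in another sample than the hem genes. Of 17 members, 14 were highest in S1-4 and none in S3-4, against 25.2% and 15.2% of the 12306 genes. The sum was 12348, 7741, 10580.3 and 5514 CPM. Without Ttr the sum was 1879, 1404, 1234 and 1372 CPM, so that S1-4 stayed highest while the lowest sample was S3-1 and not S3-4. Folr1, a folate receptor, had 124, 71.4, 101 and 59.2 CPM, its call being lost after the adjustment for GC content and length. The chloride channel gene Clic6 had 331, 236, 154 and 290.5 CPM, the water channel gene Aqp1 179, 114, 117 and 99.6 CPM and Kcne2, a potassium channel subunit of the epithelium, 169, 107, 135 and 127 CPM. Igf2, an imprinted growth factor that choroid plexus and meninges share, had 133, 193, 82.02 and 112 CPM and likewise lost its call. In all, 6 of 15 members were variable, against 13.9% over all genes, or 2 without S3-1 and 3 without S1-4. The prolactin receptor gene Prlr was under 1 CPM in the mean. Motile cilia genes, used by choroid plexus and ependymal cells, summed to 398, 271, 268 and 318 CPM, again highest in S1-4, with Foxj1, their master regulator, at 118, 82.7, 80.8 and 93.5 CPM.

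Inhibitory interneuron genes had the largest share of variable members among the lineage lists with more than 2 members tested. Of 15 genes that passed the count minimum 14 were variable, or 13 after the adjustment for GC content and length and between 10 and 14 with 1 sample left out. All 16 members were highest in S1-4 or S1-6, where 25.2% and 22.8% of the 12306 genes were highest. The sum was 1276, 1014, 561 and 587 CPM. Gad1 and Gad2, the enzymes that make GABA, had 121, 66.7, 54.8 and 33.2 CPM and 192, 156, 111 and 71.4 CPM. Dlx1, a homeobox factor of the ganglionic eminences, had 418, 288, 146 and 180.4 CPM, and Lhx6, of interneurons from the medial eminence, 91.1, 66.1, 33.7 and 56.3 CPM. S1-4 was the highest of the 4 for each of these genes.

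A second set within the list was highest in S1-6. Dlx2 had 51.7, 102, 20.9 and 52.4 CPM. Nkx2-1, which specifies the medial ganglionic eminence and is not expressed by pallial progenitors, had 22.7, 25.4, 2.27 and 17.6 CPM and Lhx8, of its cholinergic and pallidal derivatives, 8.03, 22.4, 0.66 and 4.15 CPM. Both genes were lowest in S3-1, where Lhx8 had 9 counts. Htr3a, of interneurons from the caudal eminence, had 20.1, 2.78, 7.63 and 2.40 CPM and the neuropeptide gene Npy 27.5, 5.71, 8.51 and 6.95 CPM, both highest in S1-4.

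Genes of subpallial progenitors and of the striatum were also detected. They summed to 304, 351, 282 and 123 CPM, and 9 of 12 were lowest in S3-4, against 25.5% of the 12306 genes. Isl1, of striatal projection neurons, had 82.9, 78.7, 75.6 and 23.7 CPM, Ebf1 80.1, 78.2, 69.9 and 24.6 CPM and the retinoic acid receptor gene Rarb 15.52, 22.04, 16.5 and 2.99 CPM. Foxp1 had 87.2, 118, 84.95 and 52.5 CPM. Of 8 members 7 were variable, and 2 without S3-4. These levels were not arranged as those of the interneuron genes, since S3-1 was low for Nkx2-1 and Dlx1 but not for Isl1. The dopamine receptor genes Drd1 and Drd2 were at 1.07, 3.17, 6.60 and 1.95 CPM and 2.14, 2.06, 0.807 and 0.454 CPM. Whether the limits of dissection had a part in these values was not tested.

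**Figure D4:**
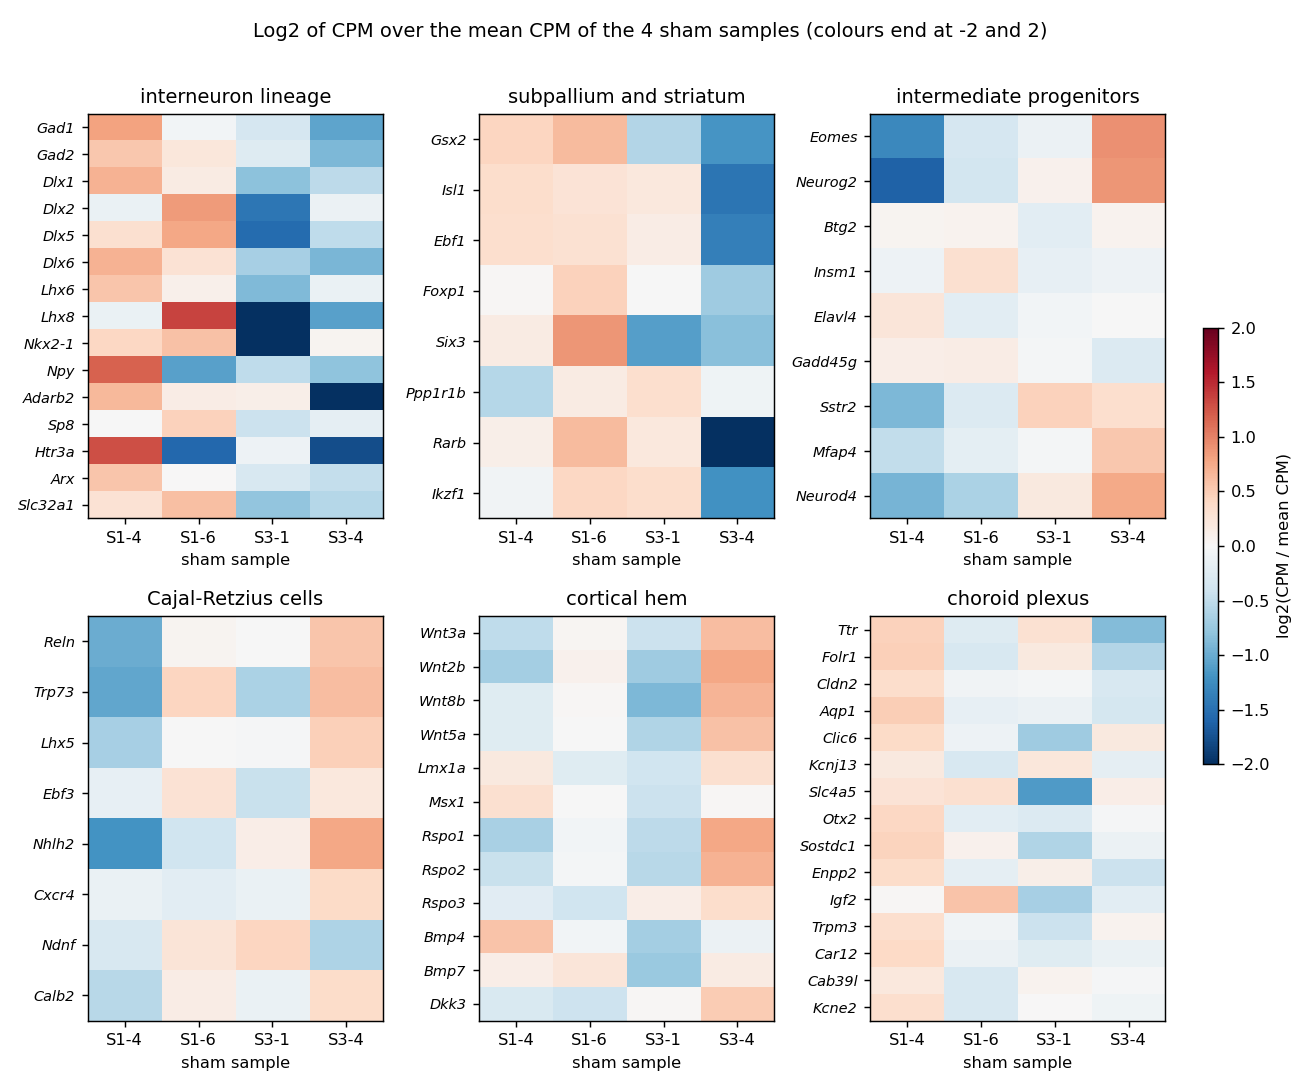
Log2 of CPM over the 4-sample mean for members of 6 lists with a mean count of at least 50, 1 column per sham sample and 1 row per gene, red above and blue below the mean. S3-4 is red for most hem, Cajal-Retzius and intermediate progenitor genes and blue for striatal genes, and S1-4 is red for most interneuron and choroid plexus genes.

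Genes of early glia were expressed, and several genes of mature glia were near the floor. In the astrocyte list Aldoc had 164, 174, 239 and 278 CPM and the transporter gene Slc1a2 66.6, 149, 69.99 and 96.003 CPM, while the mature markers Gfap and S100b were low, with Gfap at 0.713, 1.59, 0.807 and 1.82 CPM and S100b at 0.446, 0.238, 0.073 and 0.13 CPM. Many members of that list are radial glial genes at this stage. Of the oligodendrocyte lineage, Pdgfra, of early precursors, had 69.1, 55.4, 42.2 and 41.02 CPM and Olig2 41.5, 39.6, 15.8 and 21.7 CPM, whereas Sox10 had 1.07, 1.03, 0.367 and 0.454 CPM and Mog was not listed. Olig2 is also a factor of subpallial progenitors, and its levels were higher in S1-4 and S1-6, as were those of Dlx1. Microglial genes summed to 152, 164, 156 and 117 CPM, with Csf1r, the receptor that keeps microglia alive, at 19.4 ± 3.58 CPM. Of 10 genes 2 were variable, near the share over all genes, and neither was after the adjustment for GC content and length.

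Vascular and meningeal genes were present in every sample. Endothelial genes summed to 444, 355, 301 and 309 CPM, with the vascular endothelial growth factor receptor gene Kdr at 106, 87.3, 57.96 and 91.6 CPM and the glucose transporter gene Slc2a1 at 78.1, 81.03, 55.3 and 58.7 CPM. The pericyte gene Rgs5 had 143, 129, 156 and 116 CPM. Contractile smooth muscle genes were low, with Acta2 at 2.68, 2.14, 1.91 and 0.909 CPM. Of 12 meningeal fibroblast genes 8 were lowest in S3-4, against 25.5% of the 12306 genes, with a sum of 534, 639.8, 489.9 and 319 CPM. In all, 7 of 12 were variable, of which 3 were left without S3-4. In this list Col3a1, not called, had 161, 158, 154 and 81.1 CPM, and the variable genes included Ogn at 126, 94.4, 119 and 54.98 CPM, Col1a1 at 46.3, 111, 34.9 and 52.1 CPM and Lum at 19.2, 33.7, 21.3 and 5.97 CPM.

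Blood in the tissue was measured by the erythroid list, with a sum of 1048, 1305, 1536 and 999.6 CPM. The adult beta-globin gene Hbb-bs had 452, 481, 701 and 340.2 CPM and Hbb-y, an embryonic globin gene of primitive red cells, 199, 322, 324 and 299 CPM. Embryonic Hba-x had 15.2, 28.9, 8.00 and 26.9 CPM and was variable. Of the windows of Hbb-bs only 46.8% are unique, so its level is uncertain, whereas every window of Hbb-y and of Hba-x is unique. Hbb-bs was also variable, with a ratio of 2.06, and lost its call after the adjustment for GC content and length.

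Other tissues gave little. Of 17 hindbrain and spinal cord genes 3 were listed, and each had a mean under 1 CPM, with Hoxd3 at 0.981, 0.079, 0.293 and 0.195 CPM. Of 10 hypothalamic genes 4 were listed, summing to between 2.40 and 3.03 CPM. Muscle, liver and skin genes summed to 28.4, 34.8, 29.5 and 26.4 CPM. Of 8 thalamic and diencephalic genes 5 were listed, of which Tcf7l2 had 15.52, 20.1, 27.5 and 9.02 CPM and Gbx2 0.357, 4.12, 8.07 and 0.13 CPM, both highest in S3-1. Of the 5, 3 were highest in S3-1 and 2 in S1-4, and all 5 were lowest in S3-4.

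Gene families were listed in full where they bear on signaling in the region. Of 19 Wnt ligand genes 15 were in the table and 10 reached 1 CPM in each sample. Compared per kilobase, Wnt7b and Wnt7a, of cortical progenitors and neurons, were the highest at 13.8 ± 6.24 and 12.4 ± 2.20 CPM per kilobase, ahead of the hem ligands Wnt5a at 9.27 ± 3.35 and Wnt8b at 8.87 ± 3.98, though their ranges overlapped. Wnt7b differed from the hem ligands in its samples, with 44.4, 45.2, 109 and 71.9 CPM and its highest level in S3-1. In the Wnt family 5 of 8 members were variable, against 13.9% over all genes, or 1 without S3-4 and 2 without S3-1.

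Notch pathway genes were all expressed, with 20 of 20 at 1 CPM or more in each sample. The receptor gene Notch1 had 262, 507, 223 and 364 CPM and Notch2 263, 434, 208 and 429 CPM. The ligand gene Dll1 was even at 109.9, 109, 106 and 131 CPM, and the ubiquitin ligase gene Mib1, which ligand-sending cells need, had 364, 331, 371 and 405 CPM. Of the targets, Hes5 had 61.1, 76.2, 52.2 and 84.1 CPM and Hes1 31.7, 34.3, 35.4 and 51.5 CPM. The 4 variable members of 19 (21.1%, against 13.9% over all genes) were Notch1, Notch2, Notch3 and Maml1. Each was highest in S1-6 and lowest in S3-1, as were 594 of the 1716 variable genes, the most frequent combination of ends. All 4 lost their call after the adjustment for GC content and length, under which Hes5 gained one, and without S1-6 or without S3-1 the pathway had 1 call.

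Ionotropic glutamate receptor genes were expressed well before most synapses form. Gria2, the subunit that makes AMPA receptors calcium-impermeable, had 164, 145, 295 and 167 CPM, Grik2 116, 106, 130.2 and 149 CPM and Grik3 129, 126, 78.7 and 64.9 CPM. Among NMDA receptor genes Grin2b, the fetal subunit, had 20.2, 34.97, 26.2 and 16.8 CPM and the obligatory subunit Grin1 6.33, 8.88, 7.26 and 4.02 CPM. Grin2a, of later stages, was at 0.981, 0.872, 0.734 and 0.195 CPM. Metabotropic Grm5 had 18.3, 39.8, 27.4 and 20.7 CPM. Of 19 receptor genes tested 9 were variable, against 13.9% over all genes, and 2 without S1-6.

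Some inducible genes of neuronal activity and stress were low. The immediate early gene Fos had 2.05, 1.43, 0.807 and 1.49 CPM, Egr1 1.25, 1.35, 0.66 and 0.974 CPM and Npas4 was not listed, whereas Jun, also a factor of developing neurons, had 55.3, 70.9, 65.3 and 80.3 CPM. Inducible heat shock gene Hspa1a had 1.25, 0.714, 0.66 and 0.454 CPM and Hmox1, an oxidative stress enzyme, 9.45, 8.25, 3.30 and 5.26 CPM. Fosl2, at 8.38, 17.4, 19.95 and 28.8 CPM, and Ier2, at 8.38, 11.7, 14.5 and 22.5 CPM, were variable and lowest in S1-4. The hypoxia target Vegfa had 78.1, 76.7, 54.4 and 48.8 CPM.

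Over all genes, the spread among the 4 sham hippocampi was a common biological coefficient of variation of 0.23 in an edgeR fit without groups. Of the 1716 variable genes, 594 were highest in S1-6 and lowest in S3-1, the most frequent of the 12 possible combinations of ends. Without S3-1 the number of variable genes was 873, and without S1-6 it was 1114. After the GC content and length deviations were removed 1444 were variable, of which 1245 were among the 1716.

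The widest SD of log2 CPM belonged to the sex-linked genes and the repeat-sharing genes given first, with 4.55 for Eif2s3y and 4.30 for Xist. Below them were ribosomal and noncoding RNAs. Gm23935, annotated as a miRNA gene inside Zc3h7a on chromosome 16 (11144125 to 11144181) with no unique window, had 88.7, 2780.1, 77.2 and 1083 CPM, high in S1-6 and S3-4 as mt-Rnr1 was. The mitochondrial coding genes mt-Nd1 and mt-Cytb had 968, 2027, 882 and 2452 CPM and 767, 1662, 593 and 2386 CPM with the same pair of samples high, while mt-Co1 had 4098, 4244, 5315 and 4604 CPM. Rps3a3, a ribosomal protein gene copy with 34.8% unique windows, had 84.6, 1.11, 0.807 and 0.584 CPM.

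Lineage and regional genes began near the end of the 25 widest, with Lhx8 and Shox2. Shox2, a homeobox gene expressed in the thalamus, had 2.14, 0.951, 12.2 and 0.389 CPM. The genes just outside the 25 are named here after their values were seen. The synaptotagmin gene Syt13 had 6.51, 6.58, 36.3 and 1.56 CPM and the synaptic organizer gene Cbln2 5.35, 7.61, 37.1 and 1.88 CPM. The melanocortin receptor gene Mc4r had 1.78, 2.06, 21.8 and 1.75 CPM. Shox2, Syt13, Cbln2 and Mc4r were high in S3-1 alone. Fgf15, a growth factor of ventricular progenitors, had 9.19, 31.6, 5.43 and 2.08 CPM and was high in S1-6, and Trank1 had 13.6, 21.8, 15.4 and 1.56 CPM and was low in S3-4. The thalamic gene Gbx2 had its highest level in S3-1 as well. Of the 5 thalamic and diencephalic genes listed, 3 were highest in S3-1 and 2 in S1-4. Whether neighbouring tissue had a part in these values was not tested.

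At the other end, genes of at least 100 CPM with the least spread were named after their values were seen. Cadm1, a synaptic cell adhesion gene, had 216, 215, 215 and 215 CPM. The translation initiation subunit gene Eif3l had 189.6, 186, 187 and 189 CPM and the proton pump subunit gene Atp6v1b2 139, 143, 141 and 143 CPM. Atxn7l3b had 461, 437, 453 and 452 CPM. The SD of log2 CPM was 0.032 for Atxn7l3b and smaller for the other three.

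**Figure D5:**
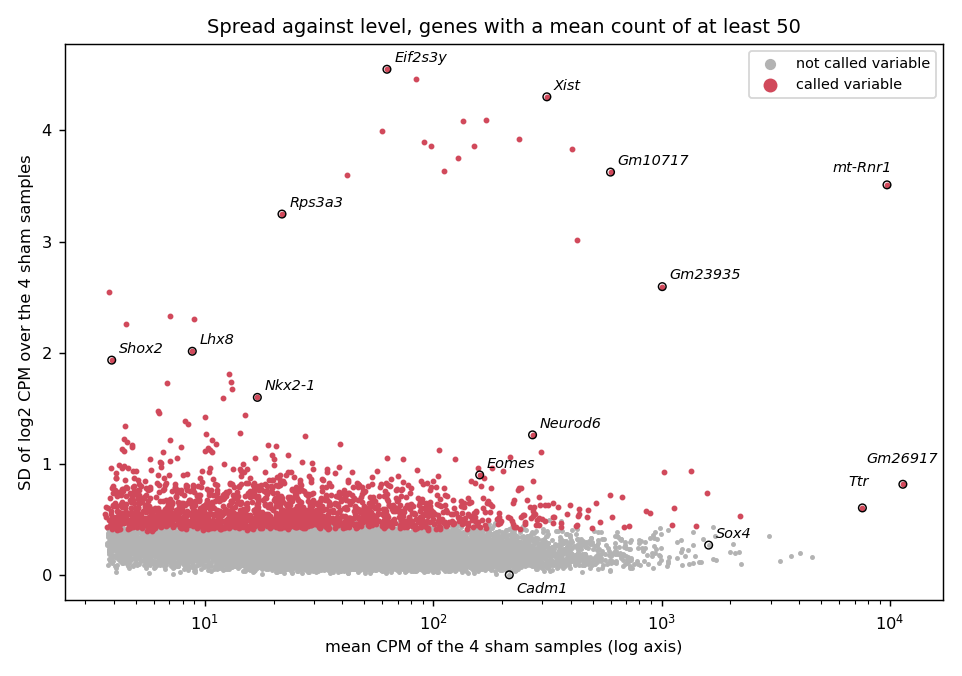
SD of log2 CPM over the 4 sham samples (prior count 2) against mean CPM (log axis) for 12306 genes, with the 1716 variable genes in red and named genes circled. Sex-linked genes such as Xist at 4.30 and the repeat-sharing Gm10717 at 3.62 lie far above lineage genes such as Neurod6 at 1.26 and Eomes at 0.90.

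The titles carry the prefixes S1 and S3, whose meaning is not given in the sources used here. Whether the spread follows them was tested with edgeR's quasi-likelihood test over 15026 genes, with 2 libraries in each set. No gene (0.00%) had an adjusted p of at most 0.05, 811 had an unadjusted p under 0.05, and DESeq2's Wald test called 12 of the 10992 genes to which it gave an adjusted p. Without S1-4 the edgeR count was 90 and without S1-6 it was 75, the lone sample of its set being assumed to vary like the others. The gene with the lowest p, Wdfy1, named for that reason, had 16.7, 12.53, 48.2 and 42.1 CPM, a log2 difference of 1.64 ± 0.23 (SE) between S3 and S1 with an adjusted p of 0.892 from edgeR's test. Dlx6, at 41.8, 31.7, 16.4 and 13.8 CPM, and Bhlhe22, at 75.6, 111, 229 and 234 CPM, were among the 10 lowest with the same adjusted p. The prefixes, mt-Rnr1 and the sex-linked genes divided the 4 libraries in 3 different ways.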

How the data were processed

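The authors deposited counts of reads on each gene, not normalized, for ribosome-depleted stranded total RNA. The submitters' processing notes name Novoalign 2.8 and build mm10 (GRCm38), and the counting program and its use of strand are not given in the sources used here, so overlapping genes on opposite strands are not separated with certainty. Samples were grouped by their treatment label, and 4 columns of 8 were used. CPM was computed from column totals with Python 3.11.15 and pandas 2.3.3, and CPM per kilobase with exon unions of GENCODE M21, which held 16124 of 16397 identifiers. SDs of log2 CPM used a prior count of 2. Intervals and the floor of 3 counts cover counting error only. edgeR 4.0.16 and DESeq2 1.42.0 in R 4.3.3 compared title prefixes, with p-values adjusted by Benjamini and Hochberg's method across the genes each tool tested. edgeR's test and the variable call were checked on simulated data with less spread between libraries than was measured here. That check does not show how many real differences between prefixes the test would find. The text names the highest genes of any biotype, transcription factors and list members by level, those under 1 CPM and genes among the 25 widest SDs (not each of them), and further list members and transcription factors were named after their values were seen. The members and lists were chosen with earlier results of these data known. Alternatives were other scalings, filters, thresholds and each sample left out, and the adjustment for GC content and length was chosen after seeing the data. Nothing in the labels states that the 4 samples are separate litters, so SDs may hold technical spread.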

Additional observations from a re-analysis of the deposited data

Results flagged for a closer look

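Of 206 gene levels and list sums examined, 17 had 1 sample of the 4 far from the other 3 by Dixon's 95% limit, a result that chance gives to about 1 in 20 such groups. That rate does not hold for Xist, Rps3a3, Shox2, Syt13, Cbln2 and Mc4r, which were named for their wide spread in these same samples, nor for other genes named after their values were seen. In S1-6, Xist was highest at 1249 CPM, and so were the summed structural and nuclear noncoding RNAs, at 28610 CPM against 13956 in the next sample. Ccna2, at 358 CPM, and Hist1h1a, at 930.4 CPM, were lowest in that sample. In S3-1, Mc4r was highest at 21.8 CPM, Cbln2 at 37.1, Syt13 at 36.3, Shox2 at 12.2 and Gria2 at 295 CPM, and Btg2 was lowest at 105 CPM. In S3-4, Isl1 was lowest at 23.7 CPM, Col3a1 at 81.1 and Pou3f1 at 15.6 CPM, and Dll1 was highest at 131 CPM. In S1-4, Sox2 was highest at 393 CPM, Npy at 27.5 and Rps3a3 at 84.6 CPM.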

How the results depend on the processing

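No paired analysis was possible because a single group was described and its replicate numbers only name samples. The number of genes at 1 CPM or more, the number of transcription factors at 10 CPM or more and the ranking of variable genes stayed within 1.5 times of the values given under every alternative run. The share of the 100 highest genes was 13.1% over protein-coding genes and 13.8% without mitochondrial genes, against 15.03%. Ranking per kilobase shared 11 of the 25 highest genes. Without their highest member the mean sums were 3461 CPM for radial glia, 3841 for young neurons, 241 for the dentate list, 198 for Cajal-Retzius cells, 1472 for choroid plexus and 729 for erythroid cells, by construction. Variable genes numbered 1011 at a mean count of at least 200, 2687 with no minimum, 5497 at a ratio of at least 1.5, 389 at 3, and from 873 to 1328 with 1 sample left out, when fewer samples can differ. Between prefixes DESeq2 called 12 genes, and with 1 sample left out edgeR called from 0 to 90. The common coefficient of variation ranged from 0.208 (without S3-1) to 0.243 with 1 sample left out. Apart from these, the cause was not tested. Depth limits genes under about 1 CPM, where a library holds under 16 counts.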
